A study of Homo sapiens with 6 samples.

Results

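The caspases CASP1, CASP2, CASP4, CASP6, CASP8, CASP9 and CASP10, together with APAF1, the scaffold on which CASP9 is activated, were followed in CAL-27 cells exposed to a copper-carrying drug. The genes were taken by symbol from the deposited expression table, which lists 16809 genes, and all 8 were found. CAL-27 is a human cell line derived from a squamous carcinoma of the tongue. RNA of 3 libraries labelled ES-Cu, from cells given elesclomol with copper at a ratio of 1 to 1 for 24 h, was compared with RNA of 3 libraries labelled normal control, and all 6 libraries came from this one line. Elesclomol is a copper ionophore, and the submitters describe the comparison as one of gene expression during cuproptosis, a copper-dependent form of cell death. The labels give no doses, and neither a vehicle nor a time for the control. They are also silent on whether the 3 libraries of a group are separate cultures. The p-values thus measure a spread between libraries that may be technical.

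Caspases are cysteine proteases that cut proteins after aspartate residues. They are made as inactive precursors and are switched on by dimerization or cleavage, so the RNA level of a caspase gene does not measure the activity of the enzyme. Initiator caspases are activated on large adaptor complexes: CASP9 on the APAF1 apoptosome after cytochrome c leaves mitochondria, CASP8 and CASP10 on death receptors through FADD, and CASP2 on the PIDDosome. Executioner caspases such as CASP6 are activated downstream and cut structural proteins, CASP6 being known for cutting lamin A. CASP1 and CASP4 are inflammatory caspases: CASP1 matures interleukin-1 beta and interleukin-18 on inflammasomes, CASP4 binds bacterial lipopolysaccharide in the cytosol, and both cut gasdermin D to release its pore-forming part.

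Values are TPM, a transcript abundance corrected for gene length that sums to one fixed total per library. Sequencing depth is unknown, since TPM keeps no read totals. The limma test, on log2(TPM + 1), covered the 11927 genes whose mean reached 1 TPM, and all 8 genes passed that filter. Fold changes below are on that log2 scale, ES-Cu over control, and understate the change of low genes. The median over tested genes was -0.50 for TPM as deposited, 0.00 once libraries were scaled by median of ratios and -0.07 once they were quantile normalized. A gene is therefore said to rise or fall only where it was called with one sign, at an adjusted p under 0.05, on all 3 scales. The 10 squamous markers examined, keratins and TP63 among them, were all above 1 TPM in every library and summed to 2941 to 2990 TPM in ES-Cu libraries and 2545 to 2666 TPM in control libraries. They did not move together. SFN (mean 1233.4 TPM in ES-Cu and 640.4 TPM in control) and KRT6A (233.7 and 173.8 TPM) rose. TP63 (24.49 TPM in ES-Cu and 86.79 TPM in control) and CDH1 (71.35 and 173.5 TPM) fell, and the other squamous markers were not called with one sign. The leukocyte marker PTPRC and the endothelial markers PECAM1, KDR and TEK lay at or near 0. The 5 fibroblast markers in the table summed to 4.72 to 5.26 TPM in ES-Cu and 11.4 to 11.6 TPM in control, the 4 leukocyte markers, mostly CD68, to 49.8 to 54.8 and 60.6 to 67.2 TPM, and the 5 endothelial markers, mostly CDH5, to 1.28 to 1.9 and 7.19 to 7.56 TPM. Their part in the results was not tested.

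The 8 genes did not move together. CASP4 rose, and CASP9, APAF1, CASP6 and CASP1 fell on all 3 scales. CASP8 was called lower as deposited only, CASP10 on 2 of the 3 scales, and CASP2 turned its sign with the scale. On the deposited scale 1 of the 8 was called higher, where 13.6% of all tested genes were, and 7 were called lower, where 70.0% of all tested genes were. After median-of-ratios scaling 2 were called higher and 5 lower, where 38.0% and 35.8% of tested genes were, and after quantile normalization 1 was called higher and 4 lower, where 31.4% and 39.9% were. The deposited values of the groups did not overlap for any of the 8, with ES-Cu higher for 1 and lower for 7, as for 14.0% and 70.3% of tested genes. With one sign on all 3 scales, 1 of 8 was higher and 4 of 8 were lower, against 13.5% and 31.2% of tested genes. The median of the 8 fold changes was -0.79 as deposited and -0.28 under either rescaling, beside the medians of all tested genes given above. In bulk RNA, fewer cells with a transcript and less of it per cell cannot be told apart.

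**Figure D1:**
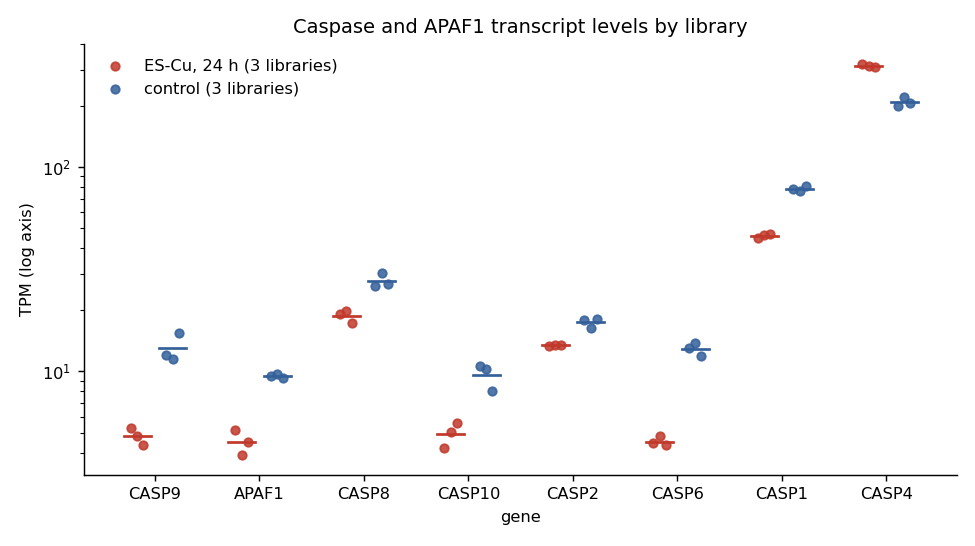
TPM of each gene in each library, on a log axis, with ES-Cu libraries in red left of control libraries in blue; points are libraries and bars are means of 3. CASP4 is the gene with ES-Cu points above its control points, and the other 7 genes have ES-Cu points below.

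Of the apoptosome, CASP9 and APAF1 fell, whereas CYCS, the gene of cytochrome c, rose (log2 fold change 0.30 as deposited). CASP9 (Entrez Gene 842) had 5.25, 4.84 and 4.37 TPM in ES-Cu, against 11.99, 11.51 and 15.41 TPM in control. Every ES-Cu value lay under every control value, and control replicate 3 was the highest of the 6. The mean was 4.82 ± 0.44 TPM in ES-Cu and 12.97 ± 2.13 TPM in control (SD, n = 3 each, as throughout), so that ES-Cu held 0.372 times the control level. The log2 fold change was -1.26 (SE 0.11, adjusted p = 1.37e-06, limma), and it was -0.76 after median-of-ratios scaling and -0.67 after quantile normalization (limma adjusted p = 0.000151 and 0.000495).

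APAF1 (Entrez Gene 317), which binds cytochrome c and assembles into the ring that recruits CASP9, had 5.15, 3.88 and 4.52 TPM in ES-Cu against 9.52, 9.67 and 9.27 TPM in control. The groups were apart, and the ES-Cu libraries were spread more widely than the control libraries (SD 0.635 and 0.202 TPM). APAF1 fell by 0.93 on the log2 scale (SE 0.10, limma adjusted p = 5.8e-06), with values of -0.45 after median-of-ratios scaling and -0.33 after quantile normalization (limma adjusted p = 0.00155 and 0.00876). Of all tested genes, 21.6% had a lower fold change than APAF1 on the deposited scale. That share was 21.7% after median-of-ratios scaling and 31.1% after quantile normalization. Within a library, APAF1 stood at 0.981, 0.802 and 1.03 times CASP9 in ES-Cu, and at 0.794, 0.84 and 0.602 times CASP9 in control. These ratios overlapped between the groups, with a difference of 0.34 on the log2 scale (exact two-sided permutation p = 0.2, and 0.267 adjusted over 4 pairs). Such a ratio does not depend on a common scale factor, and the smallest p that 3 against 3 libraries allow is 0.1.

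The executioner CASP6 (Entrez Gene 839) had the lowest fold change of the 8. It had 4.45, 4.8 and 4.33 TPM in ES-Cu libraries and 13.01, 13.71 and 11.85 TPM in control libraries, with no overlap and little spread within either group. The ES-Cu mean was 0.352 times the control mean. CASP6 fell by 1.32 on the log2 scale (SE 0.09, limma adjusted p = 1.27e-07), and stood at -0.83 after median-of-ratios scaling and -0.74 after quantile normalization (limma adjusted p = 1.42e-05 and 3.15e-05). Of all tested genes, 6.93% had a lower fold change than CASP6 and 8.95% a lower one than CASP9 on the deposited scale. The ratio of CASP6 to CASP9 within a library was 0.848, 0.992 and 0.991 in ES-Cu and 1.09, 1.19 and 0.769 in control. It overlapped between the groups (difference -0.085 on the log2 scale, exact two-sided permutation p = 0.8, and 0.8 adjusted over 4 pairs).

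The inflammatory caspases split. CASP4 (Entrez Gene 837), the sensor of cytosolic lipopolysaccharide, had 321, 312.22 and 307.73 TPM in the ES-Cu libraries, against 200.06, 219.4 and 206.31 TPM in the control libraries. All ES-Cu values were higher than all control values, and the mean was 1.5 times that of control (313.7 ± 6.75 TPM in ES-Cu and 208.6 ± 9.87 TPM in control). CASP4 rose by 0.59 on the log2 scale (SE 0.04, limma adjusted p = 2.55e-07), with 1.14 after median-of-ratios scaling and 0.73 after quantile normalization (limma adjusted p = 6.78e-09 and 2.11e-07). Of all tested genes, 94.3% had a lower fold change on the deposited scale.

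CASP1 (Entrez Gene 834), the interleukin-1 converting enzyme, had 44.7, 46.65 and 46.97 TPM in ES-Cu and 77.93, 76.39 and 80.57 TPM in control. The groups were far apart for their spread, at 46.11 ± 1.23 TPM in ES-Cu and 78.3 ± 2.11 TPM in control. CASP1 fell by 0.75 on the log2 scale (SE 0.05, limma adjusted p = 8.33e-08), and the fall was smaller after median-of-ratios scaling (-0.20, limma adjusted p = 0.00378) and after quantile normalization (-0.43, limma adjusted p = 1.95e-05). Of all tested genes, 32.3% had a lower fold change than CASP1 on the deposited scale. That share was 36% after median-of-ratios scaling and 24.1% after quantile normalization. The opposite courses of CASP4 and CASP1 showed in their ratio. CASP4 stood at 7.18, 6.69 and 6.55 times CASP1 within the ES-Cu libraries and at 2.57, 2.87 and 2.56 times CASP1 within the control libraries, a difference of 1.35 on the log2 scale with no overlap (exact two-sided permutation p = 0.1, the smallest possible here, and 0.267 adjusted over 4 pairs).

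**Figure D2:**
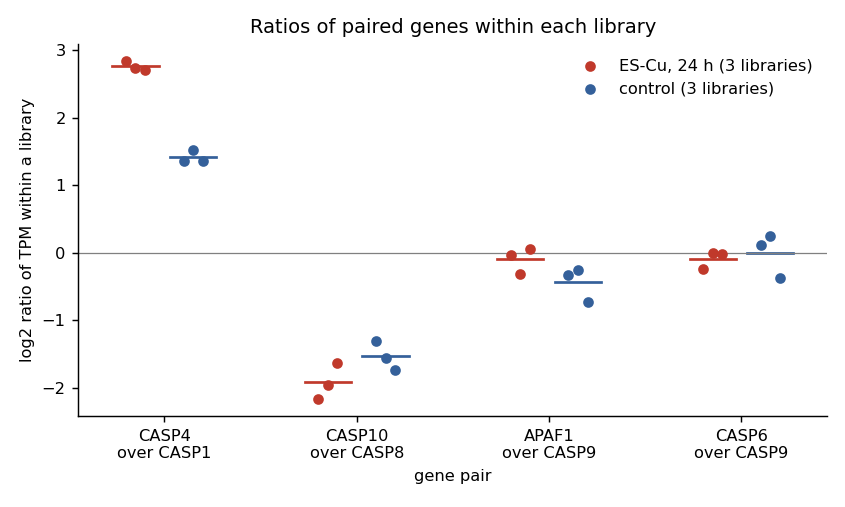
Log2 ratio of the TPM of 2 genes within each library for 4 pairs, ES-Cu in red left of control in blue; points are libraries and bars are means of 3. CASP4 over CASP1 is the pair whose groups do not overlap, at 2.71 to 2.84 in ES-Cu and 1.36 to 1.52 in control.

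Of the death receptor initiators, CASP8 (Entrez Gene 841) had 19.02, 19.63 and 17.32 TPM in ES-Cu and 26.19, 30.24 and 26.8 TPM in control. The deposited values did not overlap and gave a log2 fold change of -0.55 (SE 0.07, limma adjusted p = 3.52e-05), close to that of the median gene. After median-of-ratios scaling CASP8 was at 22.6 ± 1.76 in ES-Cu and 22.8 ± 1.73 in control (log2 fold change -0.01, 95% interval -0.18 to 0.16, limma adjusted p = 0.883), and after quantile normalization its log2 fold change was -0.13 (limma adjusted p = 0.138). It is not counted as changed. CASP10 (Entrez Gene 843), the paralog of CASP8, had 4.21, 5.05 and 5.58 TPM in ES-Cu and 10.61, 10.26 and 8.01 TPM in control. Its log2 fold change was -0.84 as deposited (SE 0.12, limma adjusted p = 6.54e-05) and -0.35 after median-of-ratios scaling (limma adjusted p = 0.0301), but the call was lost after quantile normalization (-0.23, limma adjusted p = 0.123), and its groups overlapped on both rescaled sets. Without control replicate 3 CASP10 was called lower on all 3 scales (-0.35 after quantile normalization, limma adjusted p = 0.0285). Its call after median-of-ratios scaling was lost without ES-Cu replicate 1, control replicate 1 or control replicate 2 (limma adjusted p = 0.112, 0.105 and 0.0916), and the value there ran from -0.46 to -0.24 as single libraries were left out. The ratio of CASP10 to CASP8 was 0.221, 0.257 and 0.322 in ES-Cu and 0.405, 0.339 and 0.299 in control, which overlapped (difference -0.39 on the log2 scale, exact two-sided permutation p = 0.2, and 0.267 adjusted over 4 pairs).

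CASP2 (Entrez Gene 835), the initiator of the PIDDosome, changed direction with the scale. It had 13.24, 13.44 and 13.43 TPM in ES-Cu, with an SD of 0.113 TPM, and 17.76, 16.2 and 18.09 TPM in control. Its log2 fold change was -0.35 as deposited (SE 0.07, limma adjusted p = 0.000627), 0.17 after median-of-ratios scaling (limma adjusted p = 0.0411) and 0.13 after quantile normalization (limma adjusted p = 0.108). After median-of-ratios scaling its call towards higher was kept without ES-Cu replicate 1 (limma adjusted p = 0.0467) and lost when any of the other 5 libraries was left out, with limma adjusted p-values of 0.0515 to 0.151.

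**Figure D3:**
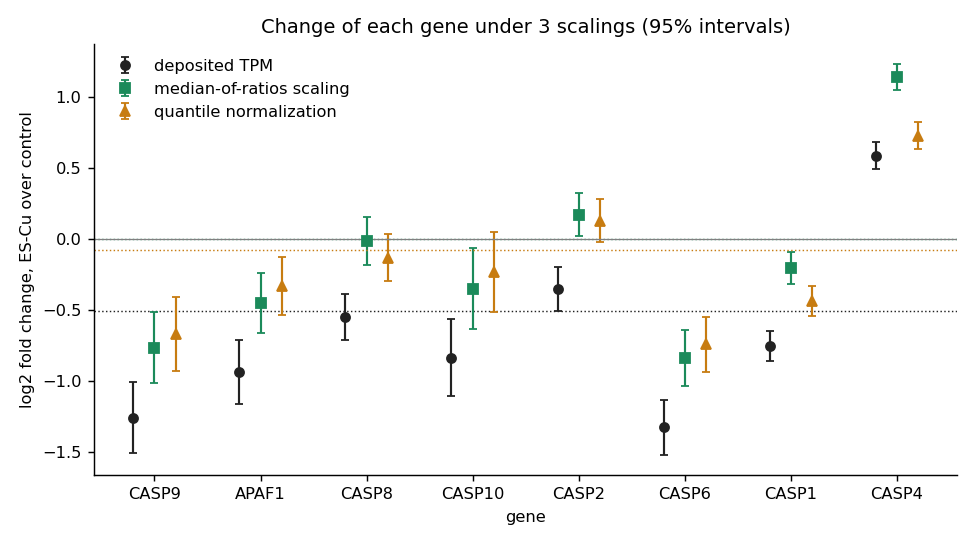
Log2 fold change of each gene, ES-Cu over control, with 95% limma intervals, on the deposited scale (black), after median-of-ratios scaling (green) and after quantile normalization (orange); dotted lines are the medians of all tested genes on each scale. CASP4 lies above 0 and CASP9, APAF1, CASP6 and CASP1 lie below 0 on all 3 scales, whereas CASP2 runs from -0.35 to 0.17.

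Levels ran over a wide range. In ES-Cu the order of mean TPM was CASP4, CASP1, CASP8, CASP2, CASP10, CASP9, CASP6 and APAF1, and the last 4 overlapped their neighbours, at 4.95, 4.82, 4.53 and 4.52 TPM. In control the order was CASP4, CASP1, CASP8, CASP2, CASP9, CASP6, CASP10 and APAF1, in which CASP9 overlapped CASP6 and CASP10 overlapped APAF1 and the other neighbours were apart. CASP4 lay above 97.5% to 97.6% of listed genes in the ES-Cu libraries and above 95.7% to 96.1% in the control libraries, whereas APAF1 lay at percentiles 44.9 to 47.9 and 49.8 to 50.4. The 8 genes summed to 411 ± 6.39 TPM in ES-Cu and 377 ± 10.2 TPM in control, and without CASP4 to 96.9 ± 1.19 TPM in ES-Cu and 168 ± 1.53 TPM in control. CASP4 made up 77, 76.1 and 76.1% of the sum in ES-Cu and 54.5, 56.6 and 54.8% in control, and CASP1 11.2% ± 0.464 in ES-Cu and 20.8% ± 0.929 in control (exact two-sided permutation p = 0.1 for either share, the smallest possible). This description of shares was chosen after the values had been seen.

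The sequences before the start of 3 genes with one listed start each are shown because these genes went opposite ways, CASP4 up and CASP6 and APAF1 down. Windows of 250 bases that end at the RefSeq gene start were found for 6 of the 8 genes, at 10 starts, in RefSeq on GRCh38.p14. CASP1, which fell, and CASP10 had no window. Capitals mark matches to any of 7 letter patterns on either strand: the GC box GGGCGG, the CCAAT box CCAAT, the TATA box TATAAA, the AP-1 site TGANTCA, the heat shock element pair GAANNTTC, the metal response element core TGCNCNC and the interferon response core, which is GAAA followed after 2 free bases by GAAA. Neighbouring or overlapping matches run together.
CASP4, chr11:104968575-104968824, minus strand: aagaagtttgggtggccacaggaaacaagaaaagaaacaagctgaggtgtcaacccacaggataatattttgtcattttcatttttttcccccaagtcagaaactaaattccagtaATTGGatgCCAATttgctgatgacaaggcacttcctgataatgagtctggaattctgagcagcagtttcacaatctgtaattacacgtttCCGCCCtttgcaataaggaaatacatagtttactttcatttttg
CASP6, chr4:109703446-109703695, minus strand: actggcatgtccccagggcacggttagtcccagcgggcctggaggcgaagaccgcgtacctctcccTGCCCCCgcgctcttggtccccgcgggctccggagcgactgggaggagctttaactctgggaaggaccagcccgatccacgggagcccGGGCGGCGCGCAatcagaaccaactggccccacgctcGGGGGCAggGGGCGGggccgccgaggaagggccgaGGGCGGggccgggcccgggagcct
APAF1, chr12:98645040-98645289, plus strand: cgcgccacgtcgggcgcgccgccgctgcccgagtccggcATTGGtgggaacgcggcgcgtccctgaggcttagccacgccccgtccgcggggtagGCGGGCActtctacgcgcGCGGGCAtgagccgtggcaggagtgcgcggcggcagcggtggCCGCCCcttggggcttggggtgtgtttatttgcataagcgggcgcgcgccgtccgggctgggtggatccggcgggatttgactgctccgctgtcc

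The CASP4 window was poor in G and C, at 38%, against 74% for CASP6, 73.6% for APAF1 and a median of 58% over 35116 windows. Windows not shown were at 45.6%, 42.8% and 55.6% for CASP8, 71.2% and 44% for CASP2, and 77.6% and 71.6% for CASP9. The CASP4 window held 1 GC box and 2 CCAAT boxes, patterns found in 42.6% and 32% of all windows, and no match to the other 5 patterns. Shares of all windows, here and below, count windows with at least 1 match on either strand. CASP6 had 3 GC boxes and 3 metal response cores, and APAF1 had 1 GC box, 1 CCAAT box and 2 metal response cores, a pattern found in 49.1% of all windows. TATA boxes, AP-1 sites, heat shock pairs and interferon response cores, found in 10.7%, 6.57%, 5.78% and 3.02% of all windows, had no match in the 3 windows shown. A match describes letters only, not a site. Since the windows shown were chosen by the direction of their genes, their contrast is description only. Whether base content or matches go with the direction of change was not tested.

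Reads of 50 bases can be shared between genes. Among transcripts of the GENCODE annotation, 5.78% of the 50-base windows of CASP1 also occurred in another gene, all of them in CARD16, which resembles the recruitment domain of CASP1, and 0.434% of those of CASP4 occurred in another gene, CASP5. For the other 6 genes this share ran up to 1.54%, the value of CASP8. On the opposite strand, 9.63% of the APAF1 windows overlapped other genes, mostly ANKS1B, which stood at 0 to 0.02 TPM in ES-Cu and 0 to 0.08 TPM in control. The 3.26% of CASP6 windows with such an overlap were mostly shared with MCUB, at 4.61 ± 0.409 TPM in ES-Cu and 6.05 ± 0.899 TPM in control. Of the CASP8 windows, 2.5% had such an overlap. Their most frequent partner was ATP6V1D, at 109.8 ± 1.88 TPM in ES-Cu and 68.81 ± 2.21 TPM in control. The sources used here do not say whether counting used strand.

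Relatives of the 8 genes were also listed. CARD16, an inhibitor of CASP1 by its recruitment domain, fell with CASP1, at 31.77 ± 5.93 TPM in ES-Cu and 58.95 ± 4.37 TPM in control (log2 fold change -0.88, limma adjusted p = 1.47e-05), and its TPM is uncertain because of the windows it shares with CASP1. CARD17 did not pass the test (log2 fold change -0.57, limma adjusted p = 0.114), and CASP14 was listed at 0 in 5 of 6 libraries.

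Around the apoptosome, 13 of 14 listed genes were tested, of which 3 rose and 3 fell on all 3 scales, 23.1% each, against 13.5% and 31.2% of all tested genes. As deposited, 3 were higher and 7 lower, where 13.6% and 70.0% of all tested genes were. The list median was -0.30 as deposited, 0.23 after median-of-ratios scaling and 0.14 after quantile normalization, turning its sign with the scale, against -0.50, 0.00 and -0.07 for all tested genes. BIRC3, a cellular inhibitor of apoptosis protein, fell to 15.98 ± 0.168 TPM in ES-Cu, against 45.63 ± 1.76 TPM in control (log2 fold change -1.46), and BIRC5, survivin, to 63.83 ± 1.21 TPM, against 122.4 ± 2.9 TPM in control (-0.93). HTRA2, a mitochondrial protease that counters such inhibitors, fell (-0.72). CYCS, cytochrome c, and DIABLO, a mitochondrial antagonist of the inhibitors, rose (log2 fold changes 0.30 and 0.41), whereas APAF1 and CASP9 fell. CYCS and DIABLO were named for their role after their values had been seen.

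Among 14 tested adaptors and regulators of CASP8, CASP10 and CASP2, 5 rose and 4 fell on all 3 scales, 35.7% and 28.6%, against 13.5% and 31.2% of all tested genes. As deposited, 5 were higher and 8 lower, where 13.6% and 70.0% of all tested genes were. The median of this list was -0.28 as deposited and turned to 0.23 and 0.28 under median-of-ratios scaling and quantile normalization. SQSTM1, which encodes the scaffold p62, rose to 953.5 ± 8.57 TPM in ES-Cu, against 287.8 ± 12 TPM in control. TRADD, an adaptor of the tumour necrosis factor receptor, fell to 8.16 ± 0.951 TPM in ES-Cu, against 22.16 ± 1.78 TPM in control. Both partners of the PIDDosome fell, PIDD1 at 5.84 ± 0.562 TPM in ES-Cu and 15.87 ± 0.641 TPM in control (log2 fold change -1.30) and CRADD at 3.61 ± 0.974 TPM and 9.41 ± 1.28 TPM (-1.19), while CASP2 itself was not called with one sign. CFLAR, the decoy that restrains CASP8, rose (0.39), and FADD was not called with one sign (-0.38 as deposited, 0.17 after median-of-ratios scaling). CRADD, CFLAR and FADD were also named for their role after their values had been seen.

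The inflammasome and pyroptosis list had 20 tested genes of 26, of which 3 rose and 11 fell on all 3 scales, shares of 15% and 55%, against 13.5% and 31.2% of all tested genes. As deposited, 3 were higher and 17 lower, where 13.6% and 70.0% of all tested genes were. The list median was below 0 on each scale, at -0.75 as deposited, -0.22 after median-of-ratios scaling and -0.28 after quantile normalization. PYCARD, the adaptor ASC that joins sensors to CASP1, fell to 6.58 ± 1.24 TPM in ES-Cu, against 17.19 ± 1.64 TPM in control. GBP2, a guanylate-binding protein induced by interferon, fell to 7.17 ± 0.381 TPM, against 19.77 ± 0.393 TPM in control, and the transcription factor gene IRF1 to 27.97 ± 0.506 TPM, against 67.54 ± 1.85 TPM in control. GSDMD, the gasdermin cut by CASP1 and CASP4, fell as well, at 12.81 ± 1.06 TPM in ES-Cu and 30.27 ± 4.15 TPM in control (log2 fold change -1.17, limma adjusted p = 5.76e-07). CASP4 thus went the other way from its substrate gene and from CASP1. Of the cytokine genes whose products CASP1 matures, IL1B rose (0.50), and IL18 was not called with one sign, at 11.29 ± 1.67 TPM in ES-Cu and 17.12 ± 0.825 TPM in control (-0.57 as deposited, limma adjusted p = 0.000208, and -0.05 and -0.07 under the rescalings, limma adjusted p = 0.643 and 0.453). GSDMD, IL1B and IL18 were named for their role after their values had been seen.

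Of 23 tested genes listed as caspase substrates, 2 rose and 7 fell on all 3 scales, 8.7% and 30.4%, against 13.5% and 31.2% of all tested genes. The share that fell was thus near that of all tested genes. As deposited, 2 were higher and 16 lower, where 13.6% and 70.0% of all tested genes were. The median of the substrates was -0.29 as deposited, 0.20 after median-of-ratios scaling and -0.11 after quantile normalization. LMNB1, lamin B1, fell to 39.78 ± 0.205 TPM in ES-Cu, against 127.2 ± 7.09 TPM in control (log2 fold change -1.65), LMNB2 by 1.08 and the actin-severing protein gene GSN by 1.27 on the log2 scale. LMNA, whose product CASP6 cuts, fell to 375.8 ± 5.99 TPM, against 639.4 ± 15.5 TPM in control (-0.76, and -0.21 after median-of-ratios scaling), and was also chosen for its role after its values had been seen.

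**Figure D4:**
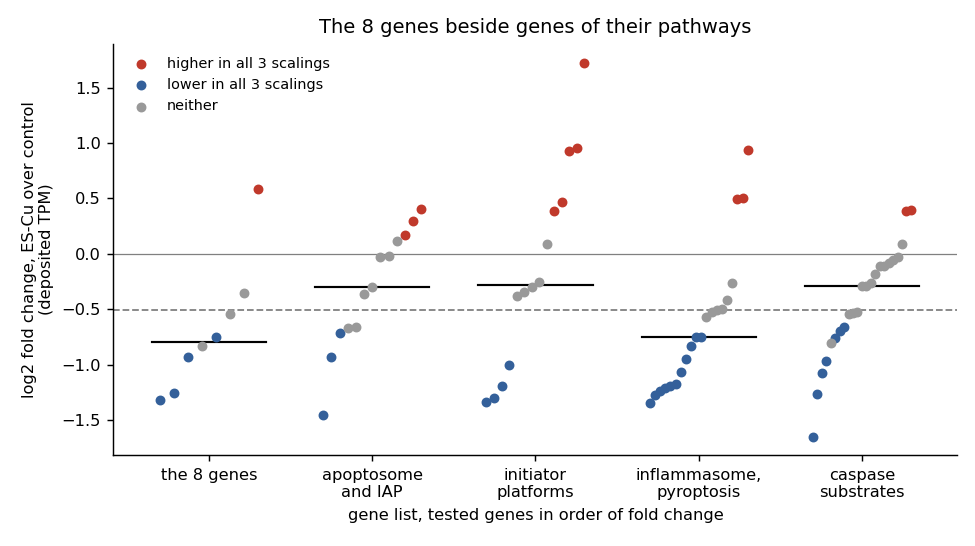
Log2 fold change of every tested gene, ES-Cu over control on deposited TPM, for the 8 genes and 4 lists of their pathways; red and blue points were higher or lower on all 3 scales, bars are list medians and the dashed line is the median of all tested genes at -0.50. The bar of the inflammasome and pyroptosis list, at -0.75, and that of the 8 genes, at -0.79, lie below the dashed line, and the other 3 lie above it. These 3 medians are above 0 after median-of-ratios scaling. After quantile normalization that of the substrates is -0.11, below the median of all tested genes at -0.07.

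The genes nearest to CASP4 in level and pattern, by Euclidean distance of log2(TPM + 1) over the 6 libraries among 11919 other genes, were PSMD1 (distance 0.103), SARS1 (0.112) and POMP (0.147). Their log2 fold changes were 0.63, 0.64 and 0.62. Genes chosen by the values of the same 6 libraries have fold changes near that of the member by construction, here and for CASP6 below. PSMD1 encodes a proteasome subunit, SARS1 a seryl-tRNA synthetase and POMP a proteasome assembly factor. Nearest to CASP6 were SPEG (0.17), FITM2 (0.181) and DHTKD1 (0.214), with log2 fold changes of -1.29, -1.38 and -1.38.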

How the data were processed

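RNA of 3 ES-Cu and 3 control libraries of CAL-27 was read as single-end 50-base reads on a BGISEQ-500, per the labels' protocols. The authors deposited TPM, rounded to 2 decimals, with each library summing to 999999 to 1000001. HISAT and Bowtie2 are named without versions in the submitters' processing notes, which also name GRCm38.p6, a mouse build, although the table lists human Entrez genes. The quantification tool and annotation are not given in the sources used here. Coordinates are therefore given only for RefSeq promoter windows on GRCh38.p14.

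The 11927 genes averaging 1 TPM or more were fitted, on log2(TPM + 1), by limma 3.58.1 (R 4.3.3) with a mean-variance trend and no replicate block. Tests were two-sided, with Benjamini-Hochberg adjustment over these genes and a threshold of 0.05. Because TPM sums to a fixed total, the fit was repeated after median-of-ratios scaling and quantile normalization of the TPM. Ratios within libraries were compared with exact permutation tests.

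The members, gene lists and tests were chosen with earlier results of these data known. Named genes were the 8 members, the listed further family members, up to 3 genes per list with the largest absolute fold change among those called with one sign on all 3 scales and averaging at least 5 TPM in a group, and the 3 nearest genes of the members with the highest and lowest fold change. Some genes that this rule takes are not reported here. The fit was tested on simulated data in which few genes changed and no total was fixed. It recovered 48 of 50 genes set to -0.5 on the log2 scale and 50 of 50 at each of -1, 0.5 and 1. It also called 4 of 11727 unchanged genes. That simulation does not cover a shift of the median gene such as the one seen here. Alternatives were other pseudocounts, filters, scalings and variance models, the removal of single libraries, and a replicate block.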

Additional observations from a re-analysis of the deposited data

How the results depend on the processing

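Under 16 alternative settings, 123 values of the 8 fold changes kept their direction and their side of the threshold, 3 were no longer called and 2 reversed. These were CASP2, at 0.17 after median-of-ratios scaling and 0.13 after quantile normalization, CASP8 (-0.01 and -0.13 under the same scalings, not called) and CASP10 (-0.23 after quantile normalization, not called). Median-of-ratios scaling gave 2 genes of the 8 higher, and quantile normalization 4 lower. Over all genes these scalings called 4532 and 3751 higher and 4266 and 4756 lower, against 1628 higher and 8351 lower as deposited. After median-of-ratios scaling 8, 8, 5 and 11 genes of the apoptosome, initiator platform, inflammasome and substrate lists were higher and 3, 4, 11 and 8 were lower. Quantile normalization gave 6, 9 and 10 higher and 4, 4 and 9 lower in the first, second and last of these lists. With the 20 highest genes removed, 5 apoptosome genes and 4 substrates were higher, against 3 and 2 as deposited. Over all genes that setting called 2309 higher and 7296 lower, against 1628 and 8351 as deposited. The cause was not tested.

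The log2 difference of CASP4 over CASP1 was 1.17 and that of CASP10 over CASP8 -0.13 after quantile normalization. That of CASP6 over CASP9 ranged from -0.273 to 0.0427 as single libraries were left out, being above 0 only without control replicate 2; APAF1 over CASP9 ranged from 0.193 to 0.45, CASP10 over CASP8 from -0.532 to -0.261 and CASP4 over CASP1 from 1.31 to 1.41. With any one library left out and all scalings repeated, an alternative added after the data were seen, 1 gene was higher (CASP4) and 4 to 5 were lower on all 3 scales, CASP10 joining CASP1, CASP6, CASP9 and APAF1 without control replicate 3. The matching counts over all tested genes on all 3 scales are not given here. On the deposited scale alone, leaving out single libraries gave 1493 to 1590 genes higher and 8070 to 8323 lower over all genes. The replicate block gave 1614 higher and 8343 lower genes and changed no call of the 8 genes. Same-numbered libraries did not deviate together (correlations 0.0206, -0.0337 and 0.0107), so the numbers were not taken as pairs.

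Depth is unknown, so counting error of genes near 5 TPM, such as CASP9, CASP10, CASP6 and APAF1 in ES-Cu, could not be given.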
